A study of Caenorhabditis elegans with 2 samples.

Results

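The genes described here encode core subunits of nucleosome remodelling and deacetylase (NuRD) type chromatin complexes of Caenorhabditis elegans: the MTA-type genes egl-27 and lin-40, the Mi-2 genes let-418 and chd-3, the histone deacetylase gene hda-1 and lin-53, which encodes a histone-binding protein of the RbAp46/48 type. They are 6 of 19973 protein-coding genes on the nuclear chromosomes. For each gene, calls of FOS-1 binding were collected in a window of the gene span plus 5 kb to both sides. The genes were chosen by their complexes and selected on the calls in these same lists, their signal, rank, position and sites, so all counts and values below are a description and none carries a test.

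Mi-2 proteins are ATP-dependent nucleosome remodellers, and in NuRD complexes they act together with class I histone deacetylases, which remove acetyl groups from histones, with MTA scaffold proteins that hold the deacetylase, and with RbAp proteins that bind histones. Such complexes are best known as repressors that keep genes of another cell fate or stage off. In the worm, let-418, hda-1, lin-53 and lin-40 are known for their parts in vulval development, and egl-27 for cell polarity, cell migration and the patterning of the embryo. FOS-1 is a bZIP transcription factor of the Fos family, which binds DNA as a dimer, classically at the AP-1 site.

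The data are from chromatin immunoprecipitation with sequencing (ChIP-seq) of entire L2 larvae, both sexes pooled, of the strain OP304, which carries the unc-119(ed3) allele on chromosome III and the transgene wgIs304. The tagged protein is eGFP-fos-1, and there are 2 biological replicates of 1 group, with no second condition. FOS-1 at a site in few cells and weaker binding in many cells cannot be told apart in whole larvae, and all binding is that of a tagged protein from a transgene. The list kept at a set irreproducible discovery rate (IDR), which scores how well ranks agree between replicates, held 7446 peaks, and the relaxed lists held 28259 calls in the pooled data, 29339 in replicate 1 and 28938 in replicate 2. The signal is the value the authors' peak caller gave each call. It has no unit and is not normalized between lists, so ranks (1 is the strongest call of a list) are given beside it. The read depth is unknown. Positions are on ce11, counted from 1.

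All 6 genes had at least 1 IDR summit in their window, as did 57.0% of all protein-coding genes. The windows held 19 IDR summits in 96460 bp, or 0.197 per kb, beside 0.0743 per kb over the nuclear chromosomes. Of the 19, 10 belonged to egl-27. The windows of the other 5 genes held 9 summits, or 0.122 per kb. In a window of this kind, 28.4% of all genes had 2 or more IDR summits, 5.2% had 4 or more and 0.0451%, or 9 genes, had 10 or more. Among the 6 genes, lin-40, chd-3 and hda-1 had 1 each, lin-53 had 2, let-418 had 4 and egl-27 had 10. Several of these counts rest on the list used. Among the strongest calls of replicate 1 alone, as many as the IDR list holds, lin-40 had 2, chd-3 had 0 and lin-53 had 1, and among those of replicate 2 alone chd-3 had 2 and hda-1 had 2. egl-27 had 13 and 10 in these lists, and let-418 had 3 in both. The window grows with the gene, from 11565 bp at lin-53 to 22901 bp at egl-27, and was not matched for length in these shares. At least 1 relaxed call lay in the window of all 6 genes in each list, as it did for 79.5% of all genes in the pooled list, 80.8% in replicate 1 and 88.2% in replicate 2.

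**Figure D1:**
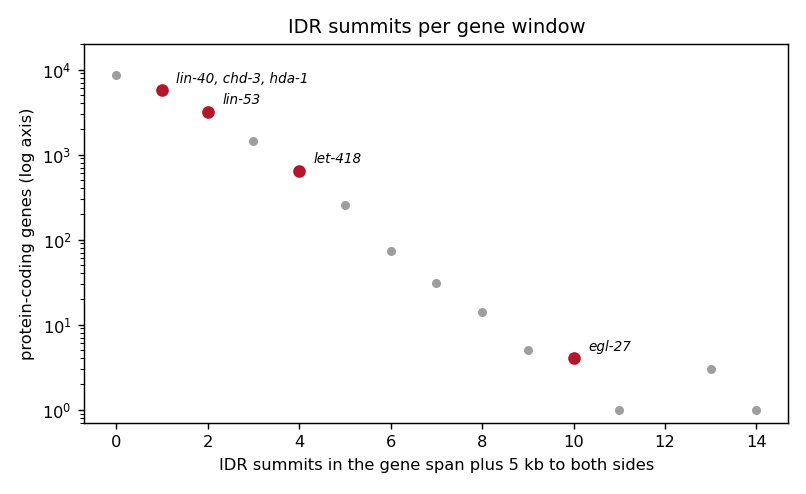
Number of protein-coding genes (vertical log axis) by the number of IDR summits in the gene span plus 5 kb to both sides (horizontal axis). The values of the 6 genes are in red: egl-27 lies at 10, a count that 4 genes share, while lin-40, chd-3 and hda-1 lie at 1.

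The MTA-type gene egl-27 carried the strongest call of the 6 loci and a series of weaker ones, within the gene and to both sides of it. The gene lies on the plus strand of chromosome II from 6835008 to 6847908, and its 24 protein-coding transcripts have 14 distinct starts. The strongest peak, at chrII:6842682-6843047, had its summit at 6842887, 7879 bp downstream of the first start. That summit is in intron 10 of the 12 introns of the transcript C04A2.3b.1, an intron of 2756 bp, and lies 483 bp downstream of the nearest internal start. The peak had a signal of 331 and rank 19 in the pooled data, a signal of 224 and rank 19 in replicate 1, and a signal of 112 and rank 22 in replicate 2. Both replicates thus ranked it near the top of their lists, and 0.285% of all genes had an IDR peak of this signal or more in their window. The summits in the replicates were 0 and 21 bp from that of the pooled call.

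The next peak by signal at the locus, at chrII:6836876-6837043, had its summit in intron 3, 972 bp upstream of an internal start. It had a signal of 111 in the pooled data, 77.03 in replicate 1 and 36.7 in replicate 2. The strongest peak was thus 2.98 times the second in the pooled data, 2.91 times in replicate 1 and 3.06 times in replicate 2. The sequences of 101 bp centred on both summits, from the plus strand of the RefSeq WBcel235 genome, are shown because both hold GATA sites, in capitals. A GATA site, the sequence that GATA factors bind, is here GATA with A or T before it and A or G after it, on either strand.
egl-27 intron 10, chrII:6842837-6842937: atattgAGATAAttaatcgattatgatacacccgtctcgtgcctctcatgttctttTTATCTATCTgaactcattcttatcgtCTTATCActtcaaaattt
egl-27 intron 3, chrII:6836908-6837008: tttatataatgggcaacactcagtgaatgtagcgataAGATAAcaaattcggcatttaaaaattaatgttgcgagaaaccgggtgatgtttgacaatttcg
The window in intron 10 holds 4 GATA sites, of which a pair overlaps, and 1.09% of all IDR peaks have at least 4. The last of the 4 is also the extended GATA site TGATAAG, on the minus strand.

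A further 3 IDR summits of egl-27 were intronic. The summit at 6835705 lay in intron 2, 697 bp downstream of the first start and 233 bp downstream of the nearest one, with a signal of 96.5 in the pooled data, 67.9 in replicate 1 and 27.9 in replicate 2. The summit at 6841354 in intron 8 had a signal of 46.6, and the summit at 6845098, in the same intron as the strongest peak, had a signal of 48.6. These last peaks had rank 5540 and rank 5328 in the pooled list. With 5 IDR summits in the gene span itself, egl-27 had a count that 0.21% of all genes reached or passed.

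Upstream of egl-27, 3 IDR summits lay 1097, 2994 and 4789 bp before the first start, with signals of 50.9, 48.6 and 60.7. No IDR summit fell within 1000 bp upstream of the first start. The nearest relaxed call there lay 5 bp upstream, with a pooled signal of 7.75, and no call of replicate 2 overlapped it. Stronger relaxed calls lay 656 and 897 bp upstream, with pooled signals of 15.5 and 11.99, and each overlapped a call in both replicates. The summit 2994 bp upstream lies within the annotated non-coding RNA genes F31E8.18 and F31E8.7, and that at 1097 bp within C04A2.10 and C04A2.13. Beyond the gene end, 2 IDR summits lay in introns of the neighbour tbc-6, 13206 and 14504 bp downstream of the first start of egl-27. They were 90 and 1201 bp downstream of the nearest start, which is not the same start of tbc-6 for both, and may be counted to either gene. Neighbouring IDR summits of the locus were 1253 to 4396 bp apart, with a median of 1795 bp.

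Below the IDR list, egl-27 had 21 more pooled calls, of which 13 overlapped a call in both replicates. Of the 21, 3 had a −log10 q-value at the ceiling of 4.25 that all IDR peaks share, with pooled signals of 30.5, 28.8 and 27.98. The first of these lay 829 bp downstream of the nearest start and had a signal of 29.7 in replicate 1. The second had a signal of 33.3 in replicate 1. Neither overlapped a call of replicate 2, and the third did, with a signal of 3.54 there.

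**Figure D2:**
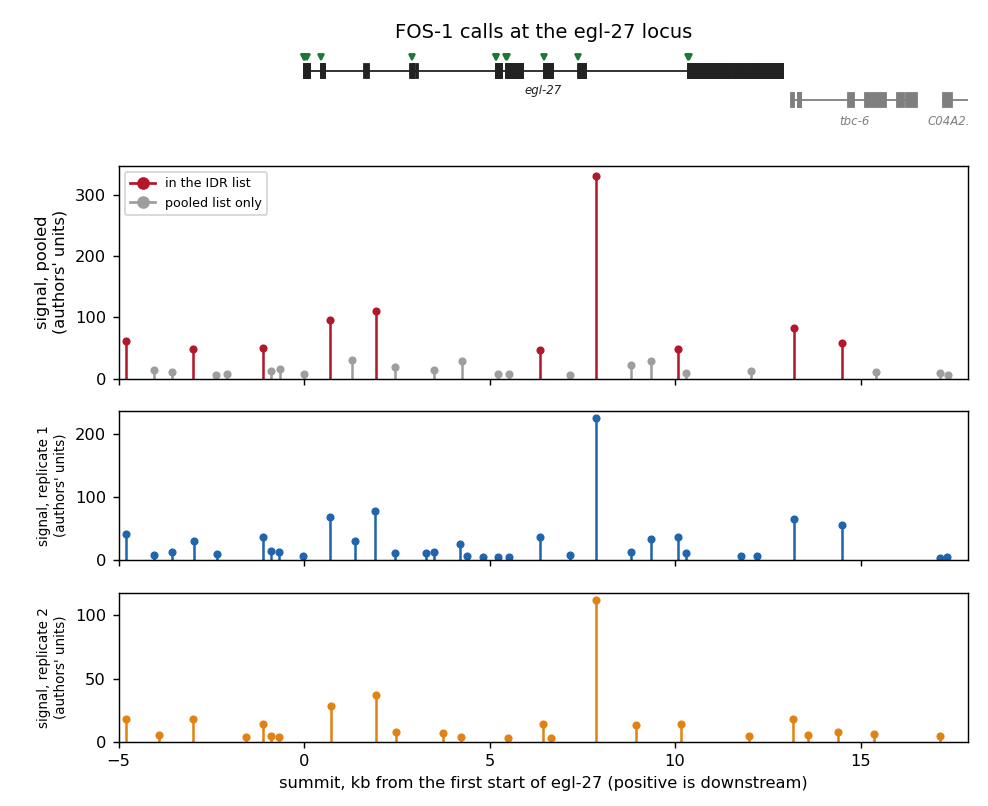
FOS-1 calls in the egl-27 window, by distance of the summit from the first start (horizontal axis, kb) and signal (vertical axes, authors' units), for the pooled data with IDR peaks in red, for replicate 1 and for replicate 2. The gene models are drawn on top, with exons as boxes and transcript starts of egl-27 as green marks. In all 3 panels the call at 7879 bp stands highest, at 331, 224 and 112.

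The other MTA-type gene, lin-40, had 1 IDR peak, upstream of the gene. The gene lies on the plus strand of chromosome V from 3704988 to 3712796. The peak at chrV:3703924-3704267 had its summit 892 bp upstream of the first start. Its signal was 85.2 in the pooled data, 58.03 in replicate 1 and 27.8 in replicate 2, with ranks of 2354, 2461 and 2326. Rank thus differed little between the lists at this peak. The gene body of lin-40 had no IDR summit. Of its 6 weaker pooled calls, 5 overlapped a call in both replicates, and the strongest of the 6 lay 548 bp upstream of the start of the neighbour nrsn-1, with signals of 25.9 in the pooled data, 26.9 in replicate 1 and 5.25 in replicate 2.

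The Mi-2 genes differed in where their calls lay. let-418, on the plus strand of chromosome V from 5826833 to 5832831, had 3 IDR summits upstream, at 4923, 3649 and 2126 bp before its single start, and 1 beyond its end. The peak at chrV:5823117-5823267 was the strongest of them, with a signal of 139 in the pooled data, 82.02 in replicate 1 and 56.8 in replicate 2. Its rank was 686 in the pooled list, 1098 in replicate 1 and 326 in replicate 2. The peak at chrV:5821842-5821991 had a signal of 125 in the pooled data, 89.4 in replicate 1 and 38.95 in replicate 2. The order of these neighbouring peaks was not the same in the replicates: the farther one was the stronger in replicate 1 and the nearer one in replicate 2. The third upstream peak, with a signal of 34.5, was called at 30.3 in replicate 1 and at 3.90 in replicate 2, where it had rank 21192. The peak 154 bp beyond the gene end had signals of 38.9, 21.3 and 16.4, and lay 846 bp upstream of the start of srh-76, a gene named for a chemoreceptor family.

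The sequences at the upstream summits of let-418 are shown because all 3 hold the extended GATA site TGATAAG, in capitals together with the shorter GATA sites.
let-418, 4923 bp upstream, chrV:5821860-5821960: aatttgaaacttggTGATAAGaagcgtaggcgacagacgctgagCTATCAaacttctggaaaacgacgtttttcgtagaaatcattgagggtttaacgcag
let-418, 3649 bp upstream, chrV:5823134-5823234: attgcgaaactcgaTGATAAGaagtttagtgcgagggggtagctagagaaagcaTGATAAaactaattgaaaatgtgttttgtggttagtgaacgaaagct
let-418, 2126 bp upstream, chrV:5824657-5824757: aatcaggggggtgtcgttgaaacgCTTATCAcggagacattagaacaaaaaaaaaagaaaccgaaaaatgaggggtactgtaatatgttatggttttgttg
In the stronger pair the site is on the plus strand and begins 36 bp before the summit in both, and 13 of the 20 bases that flank it (10 to each side) are identical. Over the whole 101 bp, 41 bases are identical. This comparison was made after the sequences were seen. In the weakest of the 3 the site is on the minus strand, read in the sequence as CTTATCA, and begins 26 bp before the summit. Within 1000 bp of the start of let-418 there were only weak pooled calls, 446 and 948 bp upstream, with signals of 6.81 and 6.01 and no overlapping call in replicate 1.

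chd-3, on the minus strand of chromosome X from 12846439 to 12852601, had a single IDR summit, and it lay on another gene. The peak at chrX:12843539-12843882 was 2728 bp beyond the end of chd-3, in an intron of the neighbour C52G5.2. Its summit at 12843711 lies inside an annotated tRNA gene, WBGene00014292, from 12843688 to 12843760. The signal was 35.1 in the pooled data, 13.1 in replicate 1 and 20.6 in replicate 2, and replicate 2 was thus the higher of the replicates. Its sequence is shown because the GATA letters nearest to the summit, in capitals, are part of the tRNA gene.
chd-3 window, tRNA gene, chrX:12843661-12843761: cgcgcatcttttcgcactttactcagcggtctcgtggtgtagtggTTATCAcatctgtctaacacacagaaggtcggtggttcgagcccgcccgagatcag
Upstream of its own start, chd-3 had pooled calls at 592 and 200 bp, with signals of 32.8 and 19.8. The call at 592 bp had a signal of 17.4 in replicate 1 and 16.03 in replicate 2.

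The lowest pooled signal in the IDR list was 33.9. Within these windows, the calls nearest to it on the inside were the peak 2126 bp upstream of let-418 at 34.5 (rank 7349) and the peak on the tRNA gene at 35.1 (rank 7246). The nearest on the outside were the call 592 bp upstream of chd-3 at 32.8 (rank 7681) and that in egl-27 at 30.5 (rank 8146).

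The genes of the deacetylase and the histone-binding subunit had calls between divergent protein-coding genes. hda-1 lies on the plus strand of chromosome V from 14525389 to 14527411. Its only IDR peak, at chrV:14524241-14524584, had its summit 976 bp upstream of the start of hda-1 and 284 bp upstream of the divergent gene ril-1, inside the non-coding RNA gene C53A5.18. The signal was 52.7 in the pooled data, 34.5 in replicate 1 and 17.8 in replicate 2. It is the nearest pooled call to the start of hda-1.

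lin-53 lies on the minus strand of chromosome I from 9618196 to 9619760, next to rba-1, which encodes the related RbAp protein. The IDR peak at chrI:9619931-9620067 had its summit 252 bp upstream of lin-53 and 215 bp upstream of the divergent gene nra-2. It had a signal of 144 in the pooled data, 87.07 in replicate 1 and 57.07 in replicate 2. Its rank was 618 in the pooled list, 931 in replicate 1 and 319 in replicate 2. This was the strongest peak of the 6 loci after that of egl-27 and, of all 19 summits, the nearest to the first start of its gene. The other IDR peak of the window lay beyond rba-1, 68 bp upstream of the start of K07A1.10, with signals of 40.1, 22.7 and 14.1.

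**Figure D3:**
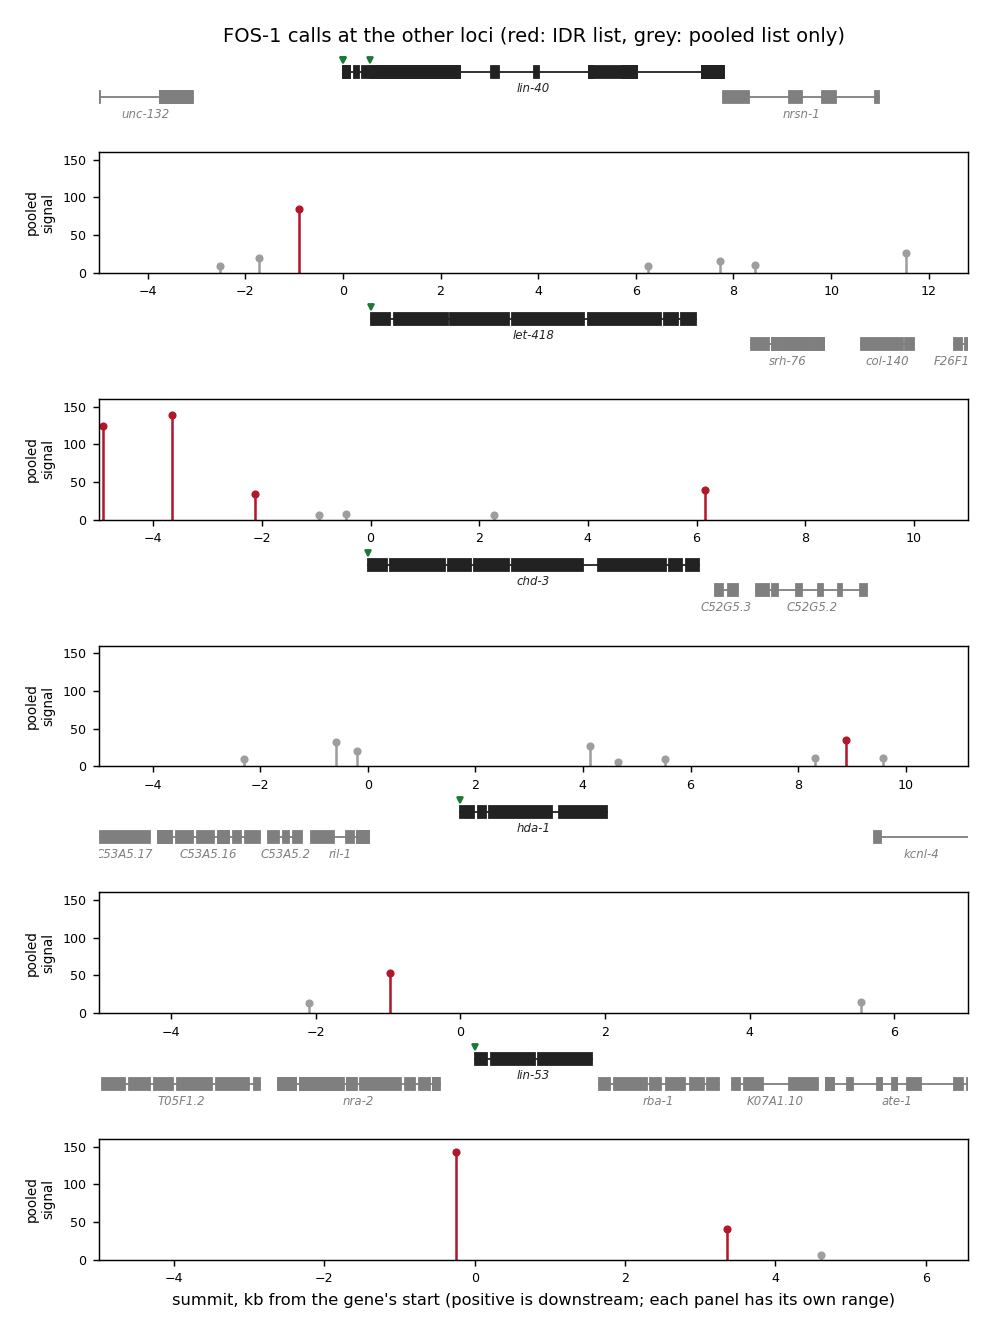
FOS-1 calls in the windows of lin-40, let-418, chd-3, hda-1 and lin-53, by distance of the summit from the first start of the gene (horizontal axis, kb, downstream positive) and pooled signal (vertical axis, authors' units). IDR peaks are in red and other pooled calls in grey; gene models are drawn above each panel with starts as green marks. No red call lies within these 5 gene spans, and the highest are at lin-53 (144) and let-418 (139).

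Taking a promoter window of 1000 bp upstream to 250 bp downstream of any protein-coding transcript start, 4 of the 6 genes had an IDR summit there, beside 23.4% of all genes. These were egl-27, lin-40, hda-1 and lin-53. That of egl-27 rests on starts other than the first one, and those of hda-1 and lin-53 are closer to the start of a divergent neighbour. The share of all genes was not matched for the number of distinct starts, which is 14 at egl-27, 3 at lin-40 and 1 at hda-1 and lin-53. Of the 19 summits, 12 were nearest to a start of the gene itself and 7 to that of another gene. None lay in a coding exon of a protein-coding gene. By protein-coding genes alone, 11 were intergenic, of which 3 lay inside the non-coding RNA genes named above, and 8 intronic, of which 5 were in egl-27, 2 in tbc-6 and 1 in C52G5.2.

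All 19 IDR peaks overlapped a call in both replicates, as did 99.1% of all IDR peaks. The IDR list was made from the pooled and the replicate calls, so such overlap follows in part from how it was made. The list is also the 7446 strongest pooled calls, so membership does not show agreement at each single peak. Of the other 41 pooled calls in these windows, 23 overlapped a call in both. The egl-27 window held 33 calls in replicate 1 and 24 in replicate 2. Among the 7446 strongest calls of each replicate, as many as the IDR list holds, 16 of the 19 were found in replicate 1 and 17 in replicate 2, beside 92.7 and 84.9% of all IDR peaks. At least 1 of these strongest calls lay in the windows of 5 of the 6 genes in replicate 1, where chd-3 had none, and of all 6 in replicate 2, beside 56.8 and 56.0% of all genes. The summit in replicate 1 was at most 32 bp from the pooled one, and in replicate 2 at most 123 bp, with 16 of 19 within 50 bp. The ratio of signal in replicate 1 to replicate 2 had a median of 2.10 at the 19 peaks and of 2.19 over all IDR peaks, where the 5th and 95th percentiles were 1.16 and 4.95. Outside that range were 3 of the 19. The ratio was 7.77 at the weakest peak upstream of let-418 and 7.05 at the far tbc-6 peak of the egl-27 window, whose signal was 55.8 in replicate 1 and 7.92 in replicate 2. It was 0.638 at the tRNA gene near chd-3, and 0.596% of all IDR peaks had a lower one. The remaining 16 peaks lay within the range.

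**Figure D4:**
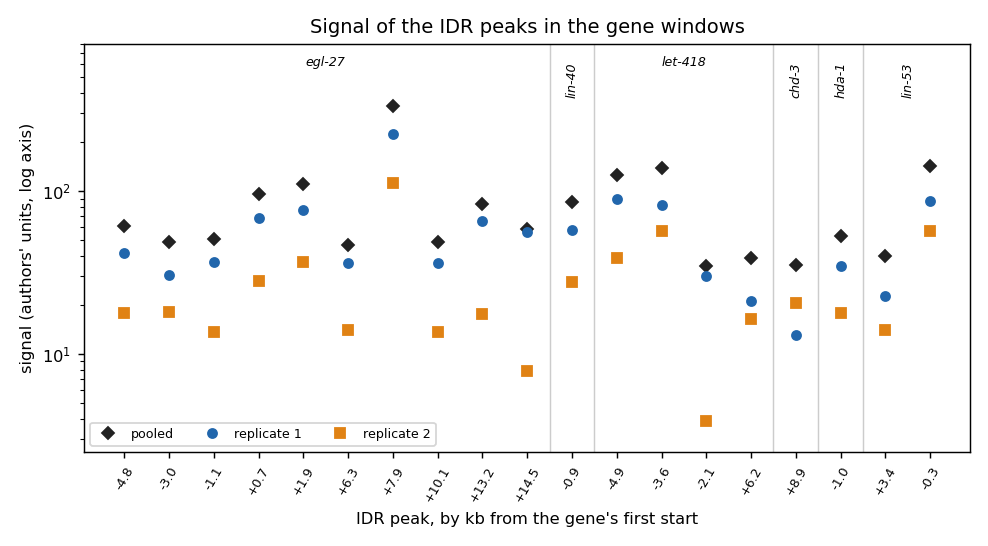
Signal (vertical log axis, authors' units) of the 19 IDR peaks in the gene windows, in the pooled data (black diamonds), replicate 1 (blue circles) and replicate 2 (orange squares). Peaks are ordered by gene and position, and labelled by kb from the first start (horizontal axis); the chd-3 peak is the only one with replicate 2 above replicate 1.

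**Figure D5:**
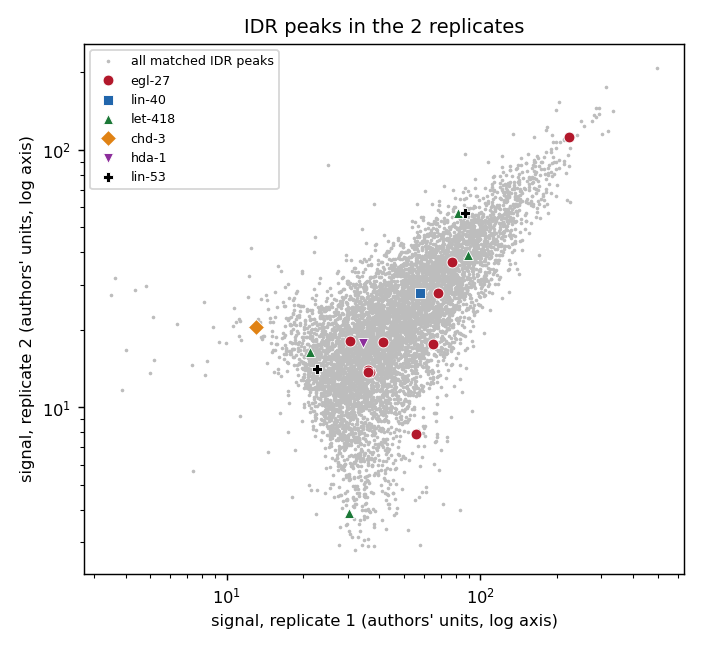
Signal of IDR peaks in replicate 1 (horizontal log axis) and replicate 2 (vertical log axis), in the authors' units, for all 7379 IDR peaks matched in both replicates (grey) and for the peaks of each gene window (coloured marks). The egl-27 peak of intron 10 lies at 224 and 112, near the upper end of the cloud, and the weakest let-418 peak at 30.3 and 3.90, at its lower edge.

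A GATA site lay within 50 bp of 11 of the 19 summits or 57.9%, beside 52.9% of all IDR peaks and 27.6% of the pooled calls outside the IDR list. The share at these loci was thus near that of the list as a whole. Of the 11, 7 were in the egl-27 window, 3 at let-418 and 1 on the tRNA gene near chd-3, while lin-40, hda-1 and lin-53 had none. The centre of the nearest GATA site was 2 to 43 bp from the summit, with a median of 10 bp. The extended site TGATAAG lay at 4 summits, 3 of them at let-418, beside 22.8% of all IDR peaks. The E-box CACGTG lay at 2 summits, both in the egl-27 window, beside 3.98% of all IDR peaks. The AP-1 site (TGANTCA with C or G at N) lay at none of the 19, beside 3.55% of all IDR peaks. None lay within 100 bp of the summit (6.2% of all IDR peaks) or anywhere in the called peak (7.16%). At shares this low, 0 of 19 is not read as a lack of the site. The same holds within 50 bp for the GAGA repeat GAGAGAG (9.83% of all IDR peaks), the CRE site TGACGTCA (0.819%) and GACGCAGA (5.33%). None of these sites was found at 8 of the 19 summits, beside 34.6% of all IDR peaks. These windows were 31.7 to 55.4% G or C, with a median of 40.6%, which was also the median over all IDR peaks.

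Genes of related complexes had 0 to 7 IDR summits in their windows, so none of them reached the count of egl-27. Of 6 further NuRD and MEC subunit genes, all had at least 1, with 1 to 3 each, beside 57.0% of all genes. The strongest was that of rba-1, but it is the lin-53 peak again, since these windows overlap. hda-2, which encodes a class I deacetylase, came next with a signal of 96.1, at a summit 762 bp upstream of the neighbour zyg-11. hda-3, a further deacetylase gene, had a peak of 66.5 closest to rbm-3.2. mep-1, the gene of a zinc finger partner of let-418, had one of 78.9 closest to gfl-1. A promoter peak was found at 1 of these 6, dcp-66 (signal 50.7, 193 bp upstream), beside 23.4% of all genes.

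Of 7 genes of the DREAM complex, a repressor that shares LIN-53, 6 had an IDR summit in the window and 5 in a promoter window, beside 57.0 and 23.4% of all genes. lin-54, the gene of its DNA-binding subunit, had a peak of signal 185 that lay 22 bp upstream of the ribosomal protein gene rpl-12. At lin-9 a peak of signal 138 lay 187 bp upstream of its own start, and at lin-35, the Rb gene, the strongest had a signal of 117. That summit was in an intron of lin-35 but nearest to the start of C32F10.4, 192 bp upstream of it. lin-37 had none. Of 6 CoREST, LSD1 and SIN3 corepressor genes, all had an IDR summit in the window (57.0% of all genes) and 1, rcor-1, in a promoter window (23.4% of all genes). The strongest, of signal 212 near sin-3, was 828 bp upstream of F02E9.5. Of 6 other remodeller genes, 5 had one in the window, beside 57.0% of all genes, and 4 in a promoter window, beside 23.4%. let-526, the gene of a SWI/SNF subunit, had 7 IDR summits in its window and its strongest peak in an intron, with a signal of 248 in the pooled data, 134.6 in replicate 1 and 114.9 in replicate 2. At chd-7 a peak of signal 184 lay 891 bp upstream of its start, while swsn-1 had none. The median number of IDR summits was 1.5 over the 6 genes described first, 1 to 2 over these lists and 1 over all protein-coding genes.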

How the data were processed

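ChIP-seq of eGFP-tagged FOS-1 in whole L2 larvae was measured in 2 biological replicates. The ce11 peak lists were used as deposited. Per the deposited manifests, the authors made a relaxed list from the alignment of each replicate and a control, a relaxed list from both replicates pooled, and from these the optimal IDR list. The signal of each call, its −log10 q-value and its summit offset are the authors' values. Which aligner and caller made them is not given in the sources used here, and neither the ce10 lists nor the control were analysed here.

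Peaks were assigned by summit to gene spans plus 5 kb (Ensembl release 115, WBcel235, the assembly named ce11 in the lists). All 7446 IDR peaks are the strongest calls of the pooled list. Calls were matched between lists by at least 1 bp, taking the nearest summit. Sites were counted within 50 bp of the summit on both strands, overlaps included, in the RefSeq WBcel235 sequence. Counting was tested on simulated data, with Python 3.11.15, numpy 2.4.6 and pandas 2.3.3. Genes named are the 6 genes, the gene with the start nearest to each of their summits, up to 3 genes of highest signal from each of 4 related lists, and the 3 genes most like egl-27; others were named after their values were seen. The genes and lists were chosen with earlier results of these data known. The alternatives were other windows, overlap in place of summits, the 3723 strongest peaks, and each replicate alone.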

Additional observations from a re-analysis of the deposited data

How the results depend on the processing

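With no margin around the gene, egl-27 was the only one of the 6 genes with an IDR summit (1 of 6), and the summits fell from 19 to 5, since all others lie outside the gene spans. With 2 kb, 5 genes and 13 summits remained, and with 10 kb 6 genes and 28 summits were counted. With the 3723 peaks of highest signal, 4 genes had a summit, the summits numbered 8 and those with a GATA site 5, by construction with fewer peaks. The 5 were 62.5% of the 8, beside 57.0% of the 3723 peaks. With a promoter window of 500 bp upstream, 2 of the 6 genes, egl-27 and lin-53, had a promoter peak in place of 4, beside 19.0% of all genes. With each replicate's strongest calls alone, 5 to 6 genes had a summit, both replicates had 20 summits, 9 to 10 summits had a GATA site and 4 to 5 genes a promoter peak, the added gene being chd-3 in replicate 2. By gene, egl-27 fell to 8 summits with 2 kb and to 4 in the 3723 strongest peaks, let-418 to 1 and 2, and chd-3 to 0 in both. In the strongest peaks hda-1 also had 0 and lin-53 had 1. With 10 kb, egl-27 had 14, lin-40 3, chd-3 2 and lin-53 4. By overlap, lin-40 had 2. The number of peaks with an AP-1 site was 0 within 100 bp, in the whole peak, in the 3723 strongest peaks and with each replicate alone. Of all peaks in these settings, 3.44 to 7.16% had one. The site was not counted for the other windows or by overlap. Site counts within 100 bp (13 with a GATA site) or in the whole peak (15) and counts by overlap (20 summits) stayed within 1.5 times the values reported. The 13 and 15 were 68.4 and 78.95% of the 19, beside 66.7 and 74.8% of all IDR peaks. No paired analysis was possible because there is 1 group. The read depth is unknown, so no absence of FOS-1 can be read from a missing call.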

Other observations

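Besides egl-27, 3 genes had 10 IDR summits in the gene span plus 5 kb. By distance over log2 signal of the strongest call in replicates 1 and 2, cox-6B on chromosome III was the most like egl-27, with strongest signals of 146.5 and 82.2 and a distance of 0.76. Its 10 summits lie in a window of 97197 bp, or 0.103 per kb, beside 0.437 per kb in the 22901 bp of egl-27. ifbp-1 on chromosome V (94.7 and 46.9) was at a distance of 1.77, and T28B11.1 on chromosome V (77.1 and 35.2) at 2.27. Their windows, of 20180 and 30263 bp, held 0.496 and 0.33 summits per kb. All were below the 224 and 112 of egl-27. The measure rests on 2 samples, and all 3 genes with the same count are named.

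Outside the IDR list, 41 pooled calls lay in the windows of the 6 genes, and 23 of them or 56.1% overlapped a call in both replicates, beside 49.0% of the 20813 such calls in the whole list. The pooled call 1714 bp upstream of lin-40 had signals of 19.6 in the pooled data, 12.6 in replicate 1 and 7.33 in replicate 2. A call within chd-3, with its summit at 12848472, had signals of 26.97, 20.04 and 6.70.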
